A study of Mus musculus with 10 samples.

Results

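CD69-positive regulatory T cells were compared with CD69-negative ones within the CD62L-low, Klrg1-negative fraction of the mouse spleen. The 4 members were chosen by their labels: replicates 1 and 2 of FR3 (CD62Llo CD69+ Klrg1-) and replicates 1 and 2 of FR2 (CD62Llo CD69- Klrg1-), out of 10 arrays in the series. Each array held RNA from a sorted population, and its value for a gene is an intensity on the log2 scale, so that a difference of 1 is a doubling. FR1 (CD62Lhi CD69- Klrg1-, replicates 1 and 2) is given beside them as a level and shared the estimate of the spread, but entered no difference. All cells had been gated on CD4 and on a red fluorescent reporter of Foxp3, and came from female C57BL/6 mice between 9 and 14 weeks old that carried this reporter. No treatment is named for any group, and how many mice stood behind an array is not stated in the labels.

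Regulatory T cells (Tregs) restrain immune responses and depend on the transcription factor Foxp3. CD69 is a membrane protein that T cells display soon after stimulation of the T cell receptor (TCR), and it binds S1pr1, the receptor by which lymphocytes follow sphingosine-1-phosphate out of lymphoid organs, and takes it off the surface. The comparison of FR3 with FR2 addresses which transcripts differ with CD69 on the surface when the other gates are held the same.

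The 6 arrays of FR1, FR2 and FR3 replicates 1 and 2 were alike in scale, with medians over all probe sets from 6.15 to 6.24. Arrays of the same group correlated at 0.989 to 0.992 across probe sets, and FR2 with FR3 at 0.985 to 0.986. FR3 replicates 3 and 4 stood apart from FR3 replicates 1 and 2, at 0.917 to 0.921, and have no FR2 array beside them, so they were left out. When they and the FR3 Klrg1+ array were added without a term for that split, the number of genes past the threshold went from 1320 to 55.

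None of the 6 measured sort marker transcripts passed the threshold (0 of 6, where 6.62% of all genes did), Cd69 included. Cd69 stood at 11.86 and 12.17 in FR2 and at 12.02 and 12.15 in FR3, a difference of 0.07 with a 95% interval from -0.23 to 0.38 (limma, Benjamini-Hochberg adjusted p = 0.862). The ranges of the 2 groups overlapped for Cd69, although its protein defined the gate. Foxp3 was at 10.91 and 10.71 in FR2 and at 10.70 and 10.65 in FR3 (difference -0.14, interval -0.42 to 0.15). Klrg1 was at 6.58 and 6.44 against 7.21 and 6.54 (0.37, interval -0.03 to 0.76), with overlapping arrays. The differences of Cd4 (0.31 ± 0.12 SE), of Il2ra, the alpha chain of the IL-2 receptor (0.25 ± 0.12), and of the adhesion receptor Cd44 (0.38 ± 0.13) did not pass either, at adjusted p of 0.177, 0.267 and 0.101 (limma, Benjamini-Hochberg).

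Of 19938 genes, 776 were higher and 544 lower in FR3 at an adjusted p under 0.05 (limma, Benjamini-Hochberg), which is 3.89% and 2.73% of the genes tested. These percentages are the background for every count of list members that follows, beside a median difference over all genes of -0.004. The SE of a typical gene was 0.128, which gives a 95% interval of 0.274 to each side. A difference of at least 1 beside the adjusted p was reached by 88 genes that were higher (0.441%) and 57 that were lower (0.286%). Both FR3 arrays lay above both FR2 arrays for 4916 genes (24.7%) and below them for 4822 (24.2%), which is the background for each statement that arrays did not overlap. The count of 1320 rested on each array: 490 genes were called without FR2 replicate 1, 861 without FR2 replicate 2, 548 without FR3 replicate 1 and 654 without FR3 replicate 2. In all of these 4 fits 367 of the 1320 genes were called. A lower level on these arrays can stem from fewer cells with the transcript or from less of it per cell, and the 2 cannot be told apart in bulk RNA.

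**Figure D1:**
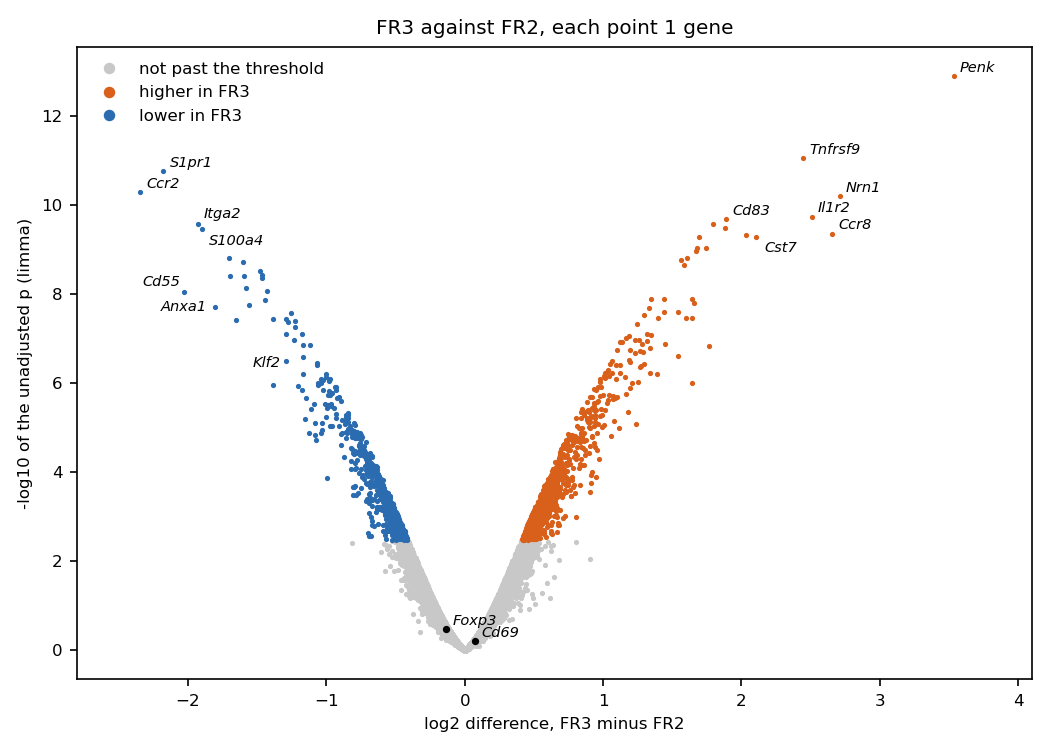
Each point is 1 of 19938 genes, with the log2 difference of FR3 minus FR2 (n = 2 arrays each) on the horizontal axis and -log10 of limma's unadjusted p on the vertical axis. The 776 genes higher in FR3 are orange and the 544 lower are blue, Penk and Tnfrsf9 lie farthest up on the right and S1pr1 and Ccr2 on the left, while Cd69 and Foxp3 (black) lie near 0.

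The genes that rose most in FR3 encode a neuropeptide precursor, surface receptors and a protease inhibitor. Penk, the precursor of enkephalin opioid peptides, stood at 8.004 and 7.66 in FR2 and at 11.40 and 11.33 in FR3, an 11.6-fold difference (log2 3.53 ± 0.14, adjusted p = 2.55e-09, limma, Benjamini-Hochberg). FR1 was at 7.19 and 7.31, so that FR3 alone of the 3 groups held a high Penk level. Nrn1, or neuritin, a small membrane-anchored protein known from neurons, went from 7.31 and 7.54 to 10.27 and 10.00 (6.54-fold), with FR1 at 7.19 and 7.68. The chemokine receptor Ccr8 went from 8.12 and 8.63 to 10.97 and 11.10 (6.31-fold), and FR1 was at 7.53 and 8.08. For these 3 genes the FR2 and FR1 levels lay close together or overlapped, far below FR3.

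Il1r2, a decoy receptor that binds IL-1 without signalling, stood at 7.19 and 6.90 in FR2 and at 9.29 and 9.81 in FR3 (5.68-fold, log2 2.51 ± 0.16), with FR1 lower than both at 5.71 and 5.75. Tnfrsf9, the costimulatory receptor CD137, was at 9.24 and 9.48 in FR2, 11.86 and 11.75 in FR3 and 9.32 and 9.24 in FR1 (5.44-fold, log2 2.44 ± 0.13). Cst7, cystatin F, which inhibits lysosomal cysteine proteases, rose by 2.10 ± 0.15 from 8.56 and 8.87 to 10.80 and 10.84. The 2 groups did not overlap in any leading gene, which the rule for choosing them required. The other leading genes were Dusp14, a phosphatase of the dual-specificity family (2.03 ± 0.14), the membrane protein Cd83 (1.89 ± 0.12), Tnfrsf8, the TNF receptor family member CD30 (1.88 ± 0.13), the amino acid transporter Slc7a10 (1.80 ± 0.12), Naip5, a flagellin sensor with close copies in the genome (1.77 ± 0.19), Cybb, the membrane subunit of the NADPH oxidase (1.75 ± 0.13), Gucy1a1, a subunit of soluble guanylate cyclase (1.69 ± 0.12), Itgb8 (1.68 ± 0.12) and Pdcd1 (1.67 ± 0.12). Gucy1a1 had nearly the same level in FR1 (6.43 and 6.49) and FR2 (6.54 and 6.50) and stood at 8.18 and 8.25 in FR3. Cybb was spread over the groups, at 6.67 and 6.92 in FR1, 8.73 and 8.64 in FR2 and 10.39 and 10.47 in FR3.

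Ccr2 and S1pr1, both receptors that steer the movement of cells, fell most in FR3. Ccr2, the receptor for monocyte-attracting chemokines, stood at 8.84 and 9.01 in FR2 and at 6.63 and 6.53 in FR3, 5.08-fold lower (log2 -2.35 ± 0.14, adjusted p = 2.55e-07, limma, Benjamini-Hochberg). FR1 was at 6.18 and 6.52, beside the FR3 level, so FR2 was the high group. S1pr1 showed another order, with 12.09 and 12.05 in FR1, 11.90 and 11.86 in FR2 and 9.65 and 9.75 in FR3 (4.53-fold lower than FR2, log2 -2.18 ± 0.12, adjusted p = 1.18e-07). Cd55, a cell surface protein that speeds the decay of complement convertases, was at 7.39 and 7.77 in FR1, 7.32 and 7.16 in FR2 and 5.49 and 4.93 in FR3 (log2 -2.03 ± 0.17). For S1pr1 and Cd55 it was FR3 that lay apart, and FR1 and FR2 were near each other.

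Several of the lower genes followed the pattern of Ccr2, high in FR2 and near FR1 in FR3. Itga2, the integrin chain CD49b, stood at 6.57 and 6.42 in FR1, 8.04 and 8.13 in FR2 and 6.04 and 6.27 in FR3 (-1.93 ± 0.13). The calcium-binding protein S100a4 was at 7.04 and 6.95, then 9.40 and 9.31, then 7.33 and 7.59 in the same order of groups (-1.90 ± 0.13). Il18r1, a chain of the IL-18 receptor, was at 7.72 and 8.01, 9.55 and 9.63, and 7.77 and 8.02 (-1.70 ± 0.14). Since FR2 entered the choice of these genes, its high level beside FR1 is a description without a test. Anxa1, an annexin, was at 6.60 and 7.08 in FR2 and at 5.05 and 5.02 in FR3 (-1.80 ± 0.16), and Iqgap2, a cytoskeletal scaffold, at 9.80 and 9.76 against 7.94 and 8.22 (-1.70 ± 0.13). Syne2, a nuclear envelope protein tied to the cytoskeleton (-1.65 ± 0.16), the chitinase-like Chil5 (-1.60 ± 0.12), the carboxypeptidase Cpm (-1.58 ± 0.13), the cyclic nucleotide phosphodiesterase Pde2a (-1.56 ± 0.14) and the adhesion molecule L1cam (-1.47 ± 0.12) fell too. Rasgrp2, which switches on the small GTPase Rap1 (-1.59 ± 0.13), and Rap1gap2, which switches it off (-1.48 ± 0.12), both fell. The dimmest 25% of the probe sets lay below 4.94 to 5.01 on these 6 arrays, and the FR3 arrays of Chil5 (4.85 and 4.81) and the lower FR3 array of Cd55 lay there. Intensities that low hold mostly background, so these folds may understate the difference.

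**Figure D2:**
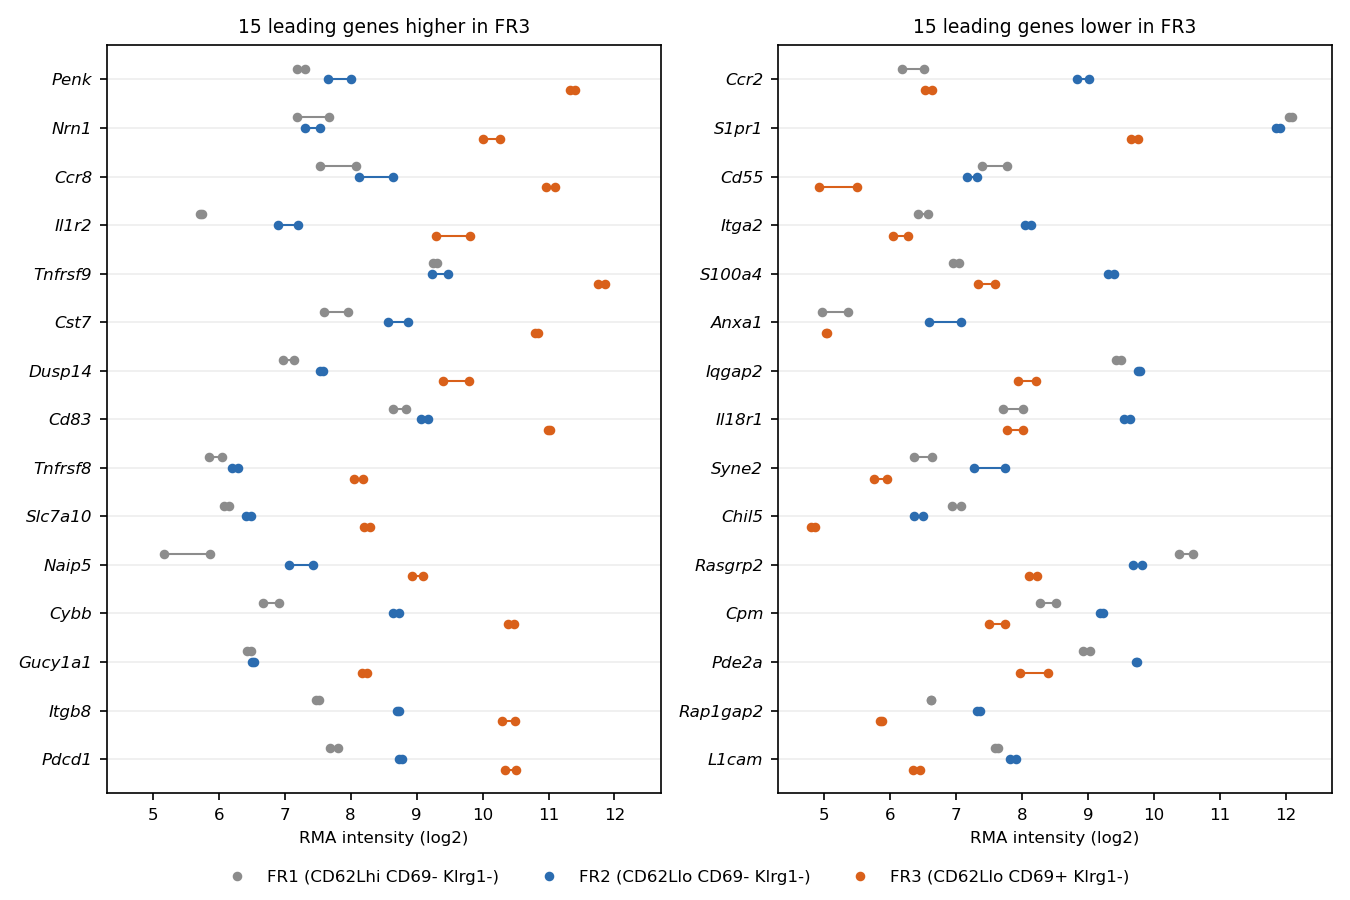
RMA intensities (log2, horizontal axis) of the 15 leading genes that were higher in FR3 (left) and the 15 that were lower (right), with 1 point per array (n = 2 per group), a line joining the arrays of a group, and FR1 in grey, FR2 in blue and FR3 in orange. By the rule of choice no FR3 point overlaps an FR2 point. Penk reaches 11.40 in FR3 against 8.004 or less elsewhere, and Ccr2 is high in FR2 only.

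Each of these 30 genes was called in every fit that left out an array, with a highest adjusted p of 0.00365 for Naip5 (limma, Benjamini-Hochberg). They also passed with the replicates that stood apart in the fit and a term for the split, at adjusted p of 0.000213 or less. That term left each difference of FR3 minus FR2 as it was, so the added arrays changed only the spread and could not contradict a difference. Without that term 13 of the 30 passed.

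The promoters of the leading genes were read for short motifs of factors that act below the TCR, on both strands, from 250 bases before to 50 bases after the listed transcript starts (RefSeq, GRCm38.p6). Letters are counted per gene, in any of its windows. Windows were listed for 12 of the 15 higher and 14 of the 15 lower genes. The AP-1 motif TGANTCA was in the windows of 4 of these 12 higher genes (Tnfrsf9, Cst7, Tnfrsf8 and Cybb) and of 0 of the 14 lower genes, while 8.08% of the 15614 tested genes with a window held it. It was less frequent among all genes called higher, in 34 of 633 (5.37%), and stood at 37 of 413 (8.96%) among those called lower, so the share in the leading genes was not that of the larger set. The letters CCACCC, which Klf2 and other KLF factors can bind, were in the windows of 199 of 413 genes called lower (48.2%), of 38.2% of those called higher and of 37.9% of those tested. Among the leading genes they were in the windows of 8 of 14 lower and of 9 of 12 higher genes. 3 stretches with the AP-1 letters and 2 with CCACCC are shown to place these letters before the start. Each is the 250 bases that end at the base before a transcript start, written along the gene's strand, with the match in capitals.
Tnfrsf9, chr4:150927749-150927998, plus strand, the downstream of 2 listed starts, match 15 bases before it: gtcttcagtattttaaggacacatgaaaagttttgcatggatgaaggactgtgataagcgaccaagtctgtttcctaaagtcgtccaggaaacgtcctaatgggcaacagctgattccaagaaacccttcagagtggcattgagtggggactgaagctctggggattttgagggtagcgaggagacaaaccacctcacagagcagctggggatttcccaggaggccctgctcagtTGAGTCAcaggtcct
Tnfrsf8, chr4:145315165-145315414, minus strand, match 132 bases before the start: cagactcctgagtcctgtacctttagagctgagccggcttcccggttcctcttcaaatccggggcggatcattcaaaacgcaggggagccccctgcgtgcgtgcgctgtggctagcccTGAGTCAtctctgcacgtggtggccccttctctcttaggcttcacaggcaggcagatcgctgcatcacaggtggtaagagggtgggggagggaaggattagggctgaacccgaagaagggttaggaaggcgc
Cybb, chrX:9469325-9469574, minus strand, match 139 bases before the start: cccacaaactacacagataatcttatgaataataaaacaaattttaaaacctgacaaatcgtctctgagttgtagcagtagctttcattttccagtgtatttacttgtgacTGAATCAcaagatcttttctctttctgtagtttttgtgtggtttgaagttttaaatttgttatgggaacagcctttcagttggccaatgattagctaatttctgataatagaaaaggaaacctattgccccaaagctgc
Cd55, chr1:130462745-130462994, minus strand, match 33 bases before the start: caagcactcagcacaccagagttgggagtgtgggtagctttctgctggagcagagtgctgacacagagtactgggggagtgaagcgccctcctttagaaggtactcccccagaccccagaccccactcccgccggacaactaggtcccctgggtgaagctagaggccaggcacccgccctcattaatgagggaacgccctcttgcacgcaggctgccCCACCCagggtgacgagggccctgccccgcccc
Il18r1, chr1:40465302-40465551, plus strand, match 70 bases before the start: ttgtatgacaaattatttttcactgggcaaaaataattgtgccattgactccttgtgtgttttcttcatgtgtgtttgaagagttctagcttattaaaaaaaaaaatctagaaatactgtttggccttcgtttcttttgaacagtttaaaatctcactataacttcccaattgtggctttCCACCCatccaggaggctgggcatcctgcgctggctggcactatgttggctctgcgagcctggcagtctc
A match shows only that these letters are present, and no binding was measured. In the other window of Tnfrsf9, at the upstream start, the AP-1 letters were not found, while CCACCC and GGAAAA, the core bound by NFAT, were. GGAAAA was in the windows of 158 of 633 genes called higher, 99 of 413 called lower (24.0%) and 3906 of 15614 tested. The cyclic AMP response element TGACGTCA was in the windows of 26 of 633 genes called higher (4.11%), 7 of 413 called lower (1.69%) and 2.72% of those tested, and in none of the leading genes with a window. The NR4A element AAAGGTCA was in 1.42% of the genes called higher, 0.969% of those called lower and 1.49% of those tested.

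Of 26 genes for leaving lymphoid organs and for lymphoid homing, 13 fell, 1 rose and 12 did not pass, with a median difference of -0.47 against -0.004 over all genes, and 10 of the 14 calls held whichever FR2 or FR3 array was left out. The list is broader than its name and also holds markers of naive T cells and signalling genes, among them Igfbp4, Satb1 and Rasa3. Its counts are therefore not of egress and homing genes alone. Besides S1pr1, the receptor S1pr4 of the same family went from 10.07 and 9.87 in FR2 to 9.03 and 8.84 in FR3 (-1.04 ± 0.13, adjusted p = 0.000153, limma, Benjamini-Hochberg). Klf2, a transcription factor that activates S1pr1, was at 11.09 and 11.43 in FR1, 10.61 and 10.60 in FR2 and 9.15 and 9.48 in FR3 (-1.29 ± 0.15, adjusted p = 7.94e-05). The order from FR1 to FR3 was the same for the chromatin organiser Satb1, at 11.99 and 11.99, 10.94 and 11.01, and 9.70 and 9.79 (-1.23 ± 0.12), and for Igfbp4, which binds insulin-like growth factors and is high in naive T cells, at 9.67 and 9.86, 8.28 and 8.27, and 6.98 and 7.24 (-1.17 ± 0.13). Rasa3, which limits Ras and Rap1, was near 10.86 and 10.91 in FR1 and 10.78 and 10.61 in FR2 and fell to 9.21 and 9.31 in FR3 (-1.43 ± 0.12).

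The list was not uniform. Cxcr4, a receptor that holds lymphocytes near its ligand in bone marrow and lymphoid tissue, was its 1 gene that rose (0.72 ± 0.18, adjusted p = 0.022), from 11.90 and 12.40 to 12.79 and 12.96, and lost the call without FR2 replicate 1, FR3 replicate 1 or FR3 replicate 2 (adjusted p up to 0.295, limma, Benjamini-Hochberg). Ccr7, the receptor that guides cells into T cell zones and lymph nodes, stood at 11.67 and 11.79 in FR1, 10.10 and 10.14 in FR2 and 10.44 and 10.49 in FR3. Its difference of 0.35 between FR3 and FR2 did not pass (interval 0.10 to 0.60, adjusted p = 0.104). Itga4 (-0.36, interval -0.62 to -0.10) and the oxysterol receptor Gpr183 (-0.30, interval -0.55 to -0.05) did not pass either.

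Of 20 chemokine receptors 4 rose and 4 fell (median 0.04), and 6 of these 8 calls held whichever FR2 or FR3 array was left out. Ccr8, Cxcr5, Ccrl2 and Cxcr4 rose, and Ccr2, Ccr9, Ccr3 and Ccr4 fell. Cxcr5, which directs cells into B cell follicles, went from 7.37 and 7.48 in FR2 to 8.90 and 9.03 in FR3 (2.91-fold, adjusted p = 1.25e-05, limma, Benjamini-Hochberg), with FR1 at 6.60 and 7.02. Ccr9, a receptor for homing to the small intestine, was at 6.75 and 6.89 in FR1, 6.21 and 6.59 in FR2 and 5.13 and 5.59 in FR3 (-1.04 ± 0.16). Ccr4, a receptor for homing to skin and inflamed tissue, fell by 0.78 ± 0.13 from 10.39 and 10.51 to 9.56 and 9.78, a level still above that of FR1 (8.06 and 8.32). Ccr3, the eotaxin receptor, fell by 0.96 ± 0.14. The call of Ccrl2, a receptor that presents chemerin (0.79 ± 0.16), was lost without FR2 replicate 1 or FR3 replicate 2 (adjusted p up to 0.121). Cxcr3, the receptor of type 1 inflammation, was at 11.45 and 11.41 in FR2 and 11.30 and 11.46 in FR3 (-0.05, interval -0.33 to 0.23), and Ccr6 had an interval from -0.27 to 0.41.

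Integrin chains also went both ways, with 3 of 17 higher and 6 lower (median -0.12), and 7 of the 9 calls held whichever FR2 or FR3 array was left out. Itgb8 and Itgav, which pair to an integrin that frees active TGF-beta from its latent form, both rose. Itgb8 was at 8.73 and 8.70 in FR2 and at 10.30 and 10.48 in FR3, with FR1 at 7.47 and 7.51. Itgav was at 10.02 and 10.06 in FR2 and at 10.66 and 10.80 in FR3 (0.69 ± 0.12, adjusted p = 0.00246, limma, Benjamini-Hochberg). Itgal, the alpha chain of LFA-1, rose from 11.08 and 11.19 to 11.83 and 11.88 (0.72 ± 0.12), while its partner Itgb2 did not pass (0.24, interval -0.02 to 0.50).

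On the lower side, Itgae, the chain CD103 that binds E-cadherin of epithelia, was at 9.65 and 9.57 in FR2 and at 8.26 and 8.64 in FR3 (-1.16 ± 0.17, adjusted p = 0.000669, limma, Benjamini-Hochberg). Itgb7, the partner of Itgae and of Itga4, fell from 11.14 and 11.07 to 10.28 and 10.08 (-0.92 ± 0.12), and Itgb3 fell from 8.64 and 8.72 to 7.48 and 7.86 (-1.01 ± 0.14). Itgb1, which pairs with Itga2 and with Itga4, fell by 0.69 ± 0.12 and missed the threshold without FR2 replicate 1 (adjusted p = 0.0527). Both chains of the CD103 integrin and both chains of the CD49b integrin were thus lower in FR3 than in FR2.

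Of 17 co-inhibitory receptors and ligands, 8 rose in FR3, 0 fell and 9 did not pass (median 0.37). Of the 8, 5 were called whichever FR2 or FR3 array was left out, and without FR3 replicate 1 the count was 5. Pdcd1, which encodes PD-1, stood at 7.68 and 7.80 in FR1, 8.74 and 8.77 in FR2 and 10.34 and 10.50 in FR3 (3.18-fold over FR2, adjusted p = 1.2e-06, limma, Benjamini-Hochberg). Lag3, which binds MHC class II, was at 6.79 and 6.80, 7.35 and 7.35, and 8.57 and 8.92 (2.63-fold over FR2), and Tigit, a receptor for CD155, at 6.72 and 7.25, 9.13 and 8.98, and 10.07 and 10.40 (2.26-fold). All 3 receptors stood in the order FR1, FR2, FR3 with no overlap between groups. They were named for the step from FR2 to FR3, and the share of all genes in this order was not counted. Pdcd1lg2, a ligand of PD-1, was at 6.07 and 6.27 in FR2 and at 7.46 and 7.52 in FR3 (2.49-fold), whereas Cd274, the other ligand, had a difference of 0.18 (interval -0.08 to 0.43). Cd200 went from 7.40 and 7.64 to 8.52 and 8.55 (2.02-fold), with FR1 at 7.45 and 7.82.

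The 3 other calls of this list rested on single arrays. Ctla4, which takes CD80 and CD86 from antigen-presenting cells, was at 12.40 and 12.53 in FR2 and at 12.98 and 12.998 in FR3 (0.52 ± 0.12, adjusted p = 0.0159, limma, Benjamini-Hochberg), and its call was lost without FR2 replicate 1, FR3 replicate 1 or FR3 replicate 2 (adjusted p up to 0.157). Cd200r1, the receptor for CD200 (0.68 ± 0.13), was lost without FR2 replicate 2 or FR3 replicate 1 (up to 0.0632), and Cd160 (0.66 ± 0.12) without FR3 replicate 1 (0.0508). Cd96 (0.14) and Vsir, which encodes VISTA (-0.09), did not pass.

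The TNF superfamily and ICOS list of costimulation had 9 of 30 genes higher and 0 lower (median 0.25), and 7 of the 9 calls held whichever FR2 or FR3 array was left out. All 8 of the named genes that rose belong to the TNF family. Tnfrsf4, the receptor OX40, was at 10.57 and 10.60 in FR2 and at 11.96 and 11.89 in FR3 (2.54-fold, adjusted p = 7.81e-06, limma, Benjamini-Hochberg), and its ligand Tnfsf4 was at 4.65 and 4.64 in FR2 and at 5.55 and 6.07 in FR3 (2.24-fold). Since Tnfsf4 in FR2 lay among the dimmest 25% of probe sets, its fold may be understated. The CD30 receptor and ligand rose together: Tnfrsf8 was at 6.29 and 6.199 against 8.19 and 8.06, and its ligand Tnfsf8 at 8.58 and 8.44 against 10.11 and 10.07 (3.00-fold). In FR1 Tnfrsf4 (10.88 and 10.77) and Tnfsf8 (8.99 and 9.15) were slightly above FR2 and well below FR3.

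Tnfrsf1b, the TNF receptor TNFR2, rose from 10.52 and 10.48 to 11.39 and 11.48 (0.93 ± 0.13), and Tnfrsf18, the receptor GITR, from 10.64 and 10.87 to 11.61 and 11.47 (0.78 ± 0.13, adjusted p = 0.00139, limma, Benjamini-Hochberg). Tnfsf11, the cytokine RANKL, rose by 0.65 ± 0.13 and lost the call without FR2 replicate 1, FR2 replicate 2 or FR3 replicate 1 (adjusted p up to 0.131). Icos, which was at 9.63 and 9.99 in FR1, was at 11.27 and 11.31 in FR2 and at 11.33 and 11.51 in FR3 (difference 0.13, interval -0.17 to 0.42). Cd28 was at 11.40 and 11.47 against 11.49 and 11.48 (0.05, interval -0.22 to 0.32), and Ly9 did not pass.

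**Figure D3:**
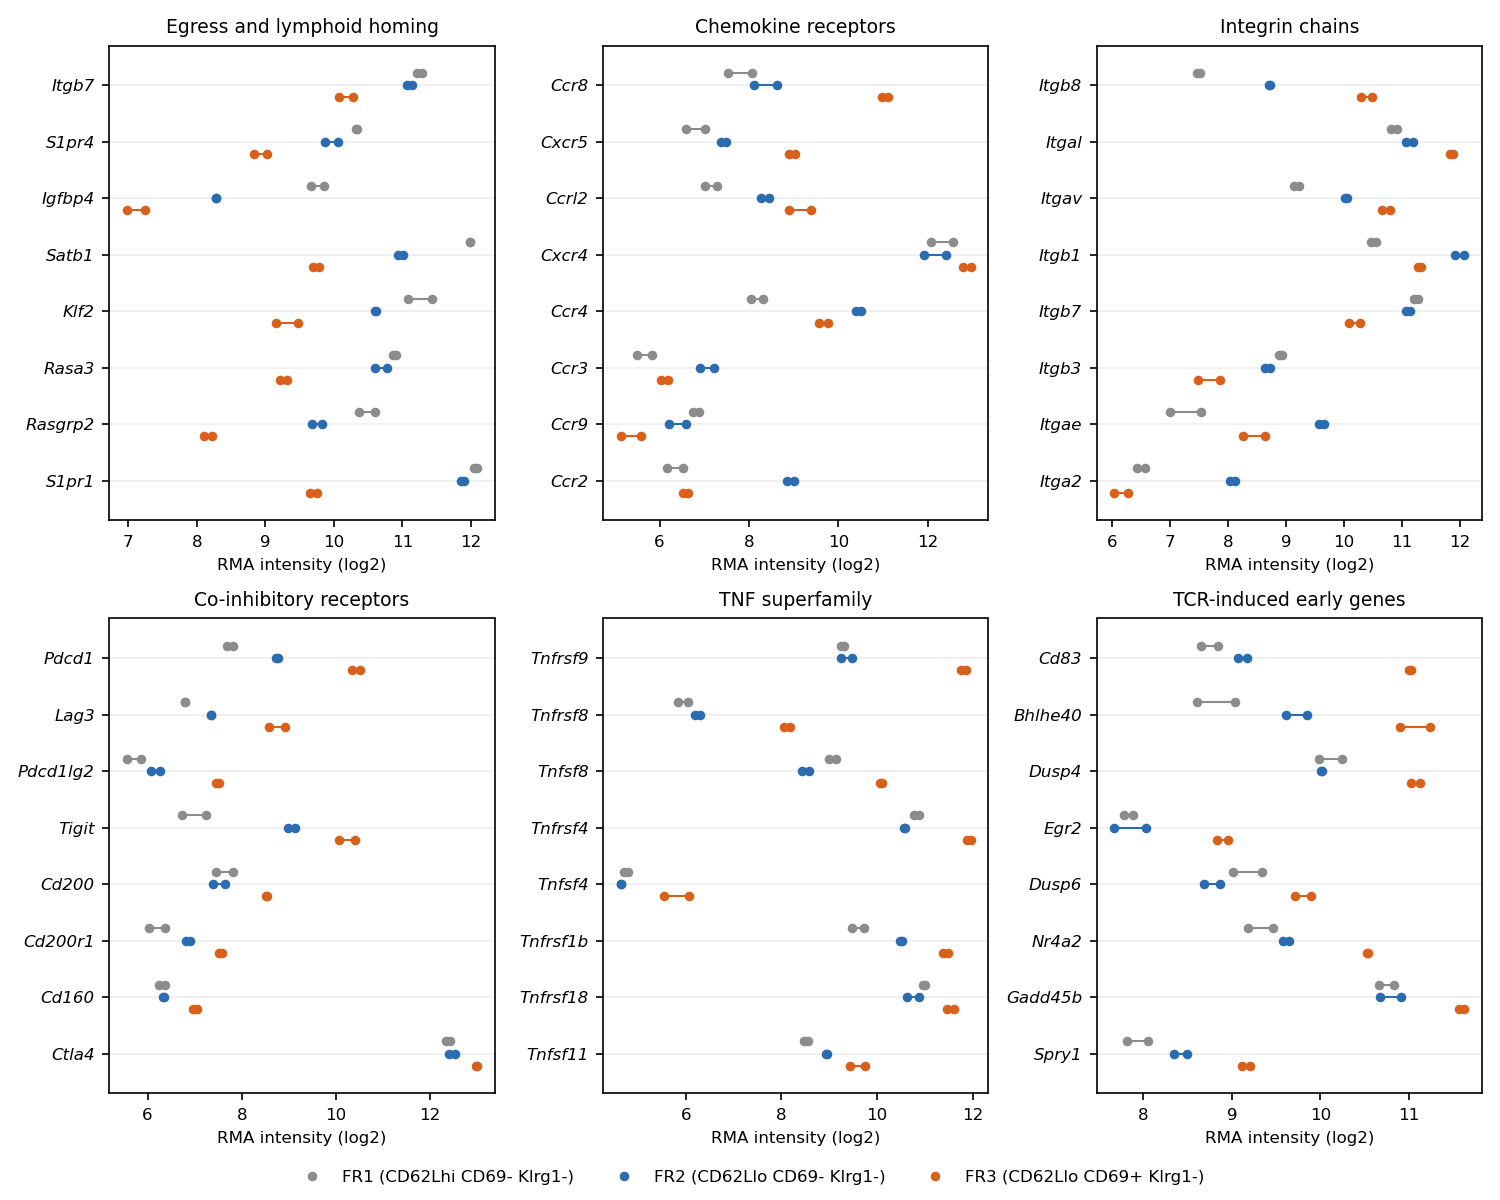
RMA intensities (log2, horizontal axes) of up to 8 called genes from each of 6 lists, with 1 point per array (n = 2 per group), a line joining the arrays of a group, and FR1 in grey, FR2 in blue and FR3 in orange. Every FR3 point lies to the right of the FR2 points in the panels of co-inhibitory receptors, TNF superfamily and TCR-induced early genes, and to the left of them in the egress panel for the 8 genes drawn, while chemokine receptors and integrin chains are split. Only called genes with the largest differences are drawn, so the gap between FR2 and FR3 follows from that choice. Members that did not pass are absent, as is Egr1, a called TCR-induced early gene that fell.

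Of 29 suppressor molecules of Tregs, 10 rose and 3 fell (median 0.14), and 9 of the 13 calls held whichever FR2 or FR3 array was left out. The list was chosen with earlier results of these data known. Its genes that rose include the leading genes Penk, Il1r2 and Itgb8, and Ctla4 and Itgav, which are counted in other lists too. Il10, the suppressive cytokine, was at 5.46 and 6.11 in FR1, 7.73 and 8.04 in FR2 and 9.25 and 9.80 in FR3 (3.12-fold over FR2, log2 1.64 ± 0.20, adjusted p = 0.000172, limma, Benjamini-Hochberg). Ebi3, a subunit of IL-27 and IL-35, was at 7.83 and 7.61 in FR2 and at 8.85 and 8.78 in FR3 (2.14-fold). Nt5e, the ectoenzyme CD73 that makes adenosine, went from 10.48 and 10.43 to 11.22 and 11.37 (1.79-fold). Izumo1r, the folate receptor FR4 of Tregs, went from 10.17 and 9.97 to 10.93 and 10.92 (1.81-fold). Il10 stood in the order FR1, FR2, FR3 with no overlap, an order whose share among all genes was not counted. Izumo1r in FR1 (10.06 and 10.08) was within the FR2 range.

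Lgals1, galectin-1, went the other way, from 11.52 and 11.65 to 10.65 and 10.71 (-0.91 ± 0.12, adjusted p = 0.000285, limma, Benjamini-Hochberg), below FR1 at 11.05 and 11.04. Several genes tied to TGF-beta and to Treg identity did not pass. Tgfb1 had a difference of -0.01 (interval -0.31 to 0.30), Lrrc32, which anchors latent TGF-beta on the cell, 0.14 (interval -0.12 to 0.41) and Nrp1 0.13 (interval -0.13 to 0.39). Of the 34 genes of the TGF-beta pathway list, 2 rose and 0 fell (median -0.05), namely Itgb8 and the repressor Skil, whose call (0.54 ± 0.13) was lost when any single array of FR2 or FR3 was left out.

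Of 42 early genes that T cells induce after TCR stimulation, 10 rose, 1 fell and 31 did not pass (median 0.08), and 8 of the 11 calls held whichever FR2 or FR3 array was left out. Cd83 stood at 9.07 and 9.17 in FR2 and at 11.02 and 10.997 in FR3, with FR1 at 8.65 and 8.84. The repressor Bhlhe40 went from 9.62 and 9.84 to 10.90 and 11.23 (2.52-fold), and the transcription factor Egr2, which restrains T cell activation, from 7.67 and 8.03 to 8.84 and 8.96 (2.06-fold, adjusted p = 0.000274, limma, Benjamini-Hochberg). The gene that fell, named here after its value was seen, was the transcription factor Egr1 (-0.49 ± 0.14, adjusted p = 0.0497), which was not among the 8.

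The ERK phosphatases Dusp4 (10.01 and 10.01 against 11.13 and 11.02, 2.10-fold) and Dusp6 (8.68 and 8.86 against 9.71 and 9.90, 2.04-fold) rose, as did Spry1, an inhibitor of the Ras pathway (0.74 ± 0.13). The orphan nuclear receptor Nr4a2 rose by 0.92 ± 0.13 (9.57 and 9.64 against 10.52 and 10.53) and the stress gene Gadd45b by 0.80 ± 0.13. FR2 levels of Dusp4 lay within those of FR1 (9.98 and 10.24), and those of Dusp6 lay below FR1 (9.01 and 9.34). The brightest members that did not pass were the phosphatase Dusp1 (0.21, interval -0.08 to 0.50), the NF-kB inhibitors Tnfaip3 (-0.11, interval -0.39 to 0.17) and Nfkbia (0.28, interval 0.02 to 0.54). For Dusp4 (-0.71 ± 1.10), Nr4a2 (-0.14 ± 0.67), Gadd45b (-1.31 ± 1.32) and Spry1 (-0.30 ± 0.65) the sign turned when FR3 replicates 3 and 4 were averaged in without a term for the split, and none then passed.

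Components of the TCR and its proximal signalling had 4 of 38 higher and 5 lower (median -0.003). This count was fragile, with 3 of the 9 still called without FR2 replicate 1, 5 without FR2 replicate 2, 3 without FR3 replicate 1 and 5 without FR3 replicate 2. The 3 that held whichever FR2 or FR3 array was left out were Txk, Prkcq and Zap70. Txk, a Tec family kinase, was at 10.47 and 10.44 in FR1, 9.55 and 9.75 in FR2 and 8.40 and 8.12 in FR3 (-1.39 ± 0.13, adjusted p = 1.55e-05, limma, Benjamini-Hochberg). Prkcq, protein kinase C theta, was at 11.58 and 11.52 in FR2 and at 10.83 and 10.79 in FR3 (-0.74 ± 0.12), whereas Zap70, the kinase that docks on the activated receptor, went from 9.77 and 9.89 to 10.49 and 10.65 (0.73 ± 0.12). The adaptor Pag1 (-0.71 ± 0.14), Sh2d1a, which encodes SAP (0.69 ± 0.13), Nfatc1 (0.51 ± 0.13), the diacylglycerol kinase Dgka (-0.47 ± 0.12) and Cd3d (0.47 ± 0.13) passed and lost the call without FR2 replicate 1 or FR3 replicate 1, and the last 3 of them also without either of the other arrays. Cd3g, Sla and Cd5, the brightest that did not pass, had differences of 0.25, 0.38 and -0.09.

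Among 47 transcription factors of T helper and Treg differentiation, 12 rose and 5 fell (median 0.17). Of the 17 calls, 8 remained without FR2 replicate 1, 9 without FR2 replicate 2, 11 without FR3 replicate 1 and 9 without FR3 replicate 2, and 7 were kept in all 4 fits. Bcl6, a transcriptional repressor that drives the follicular programme, was at 7.51 and 7.95 in FR2 and at 8.94 and 9.30 in FR3 (2.61-fold, adjusted p = 0.000129, limma, Benjamini-Hochberg), with FR1 at 7.95 and 8.25. Batf, an AP-1 family factor of effector Tregs, went from 8.67 and 8.83 to 9.73 and 9.72 (1.97-fold). Nfil3 went from 9.00 and 9.16 to 10.02 and 9.95 (1.87-fold), and Rel, the NF-kB subunit c-Rel, from 11.10 and 11.13 to 11.84 and 11.85 (1.66-fold). FR1 lay near FR2 for Rel (10.94 and 11.07) and for Batf (8.54 and 8.44), whereas Nfil3 in FR1 (8.01 and 8.36) was lower.

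Runx3, a factor of cytotoxic and tissue-resident T cells, was at 8.70 and 8.71 in FR2 and at 7.74 and 8.05 in FR3 (-0.81 ± 0.14), with FR1 at 7.96 and 7.75. The oxidative stress factor Nfe2l2 (-0.73 ± 0.13) lost its call without FR3 replicate 1 (adjusted p = 0.0583, limma, Benjamini-Hochberg), and Klf13 (-0.72 ± 0.13) without FR2 replicate 1 (0.0752). Ikzf2, which encodes Helios (0.24, interval -0.02 to 0.50), Stat4 (-0.06) and Ets1 (-0.11) did not pass.

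Of 21 follicular regulatory genes, which describe Tregs that enter germinal centres, 11 rose, 0 fell and 10 did not pass (median 0.49). Of the 11 calls, 7 held whichever FR2 or FR3 array was left out. Cxcr5, Bcl6, Pdcd1, Il1r2, Tnfsf8 and Cd200, described above, are all members. Each of these calls, and that of Cxcr4, was also counted in another list above. The list was chosen with earlier results of these data known, so its share is not independent of those counts. Fgf2, a growth factor, went from 5.99 and 6.04 in FR2 to 6.76 and 6.76 in FR3 (0.75 ± 0.12, adjusted p = 0.00186, limma, Benjamini-Hochberg), with FR1 at 6.15 and 5.90. Icos and Gpr183 did not pass, and Slamf6 had a difference of 0.26 (interval -0.03 to 0.55).

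Of 38 cytokine receptors 7 fell and 3 rose (median -0.07). The 10 calls became 6 without FR2 replicate 1, 6 without FR2 replicate 2, 6 without FR3 replicate 1 and 8 without FR3 replicate 2. Il9r, the IL-9 receptor, was at 6.89 and 7.03 in FR1, 8.46 and 8.31 in FR2 and 7.28 and 7.15 in FR3 (-1.17 ± 0.12, adjusted p = 4.12e-05, limma, Benjamini-Hochberg), and so shared the high FR2 level of Il18r1. Il6ra, the alpha chain of the IL-6 receptor, was at 11.08 and 11.12 in FR1, 10.85 and 10.61 in FR2 and 9.90 and 9.67 in FR3 (-0.94 ± 0.13), while its signalling partner Il6st had a difference of 0.23 (interval -0.03 to 0.48). Ifngr1, a chain of the interferon gamma receptor, fell from 10.77 and 10.85 to 9.93 and 10.07 (-0.81 ± 0.13). Il7r, the IL-7 receptor that sustains resting T cells (-0.73 ± 0.14), lost the call without FR2 replicate 2 or FR3 replicate 1, Il17ra (-0.62 ± 0.12) without FR2 replicate 1 or FR3 replicate 1, and Il2rb, the beta chain of the IL-2 receptor (0.61 ± 0.13), without FR2 replicate 1, FR2 replicate 2 or FR3 replicate 2 (adjusted p up to 0.106 among the 3 genes). Ifnar1 had a difference of -0.11.

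Of 27 chemokine and cytokine genes 5 rose and 1 fell (median 0.13). Cxcl10, the ligand of Cxcr3, was at 7.29 and 7.75 in FR1, 8.93 and 9.45 in FR2 and 10.26 and 10.61 in FR3 (2.36-fold over FR2, adjusted p = 0.000787, limma, Benjamini-Hochberg), and was the 1 gene of the 6 to keep its call whichever FR2 or FR3 array was left out. The other calls were Ifng (0.76 ± 0.14), Ccl1, the ligand of Ccr8 (0.75 ± 0.15), Csf1 (0.72 ± 0.13), Il4 (0.61 ± 0.12) and Osm (-0.48 ± 0.13). Without FR2 replicate 1 or FR3 replicate 1, 3 of the 6 were called, and 4 without FR2 replicate 2 or FR3 replicate 2. Il4 stood at 5.65 and 5.59 against 6.201 and 6.26 and Ccl1 at 5.89 and 5.48 against 6.46 and 6.41, both low on the array. Ccl5 was at 9.55 and 9.57 in FR2 and at 9.46 and 9.78 in FR3 (0.06, interval -0.22 to 0.33), and Tnf (0.13) and Ltb (0.17) did not pass.

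S100 proteins, annexins, galectins and other genes of this effector and memory group fell where they passed, with 10 of 23 lower and 0 higher (median -0.34), and 7 of the 10 held whichever FR2 or FR3 array was left out. S100a6 was at 8.09 and 8.07 in FR1, 10.01 and 10.01 in FR2 and 8.63 and 8.92 in FR3 (-1.23 ± 0.13, adjusted p = 3.51e-05, limma, Benjamini-Hochberg), and shared the high FR2 level of S100a4 and Anxa1. The scaffold Ahnak did so as well, at 8.69 and 8.86, 9.90 and 9.75, and 9.02 and 9.17 (-0.73 ± 0.13). Crip1, a small LIM protein, differed from them, at 11.18 and 11.28 in FR1, 10.90 and 11.06 in FR2 and 9.62 and 9.75 in FR3 (-1.29 ± 0.12). Vim, the intermediate filament vimentin, was at 12.07 and 12.04 in FR2 and at 11.05 and 11.11 in FR3 (-0.97 ± 0.12). Lgals3, galectin-3 (-0.65 ± 0.12), lost its call without FR2 replicate 1 or FR3 replicate 1 (adjusted p up to 0.0759). S100a10 (-0.05, interval -0.30 to 0.20), S100a11 (-0.36, interval -0.68 to -0.04) and Capg (-0.01) did not pass.

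Of 21 targets of IL-2 and STAT5, 6 rose and 2 fell (median 0.14). Tnfrsf4, Nfil3 and Bcl6 are among those that rose, and Bcl6 is a gene that STAT5 is known to repress. Socs2, a feedback inhibitor of cytokine signalling, fell from 8.44 and 8.41 to 7.61 and 7.61 (-0.82 ± 0.14, adjusted p = 0.00184, limma, Benjamini-Hochberg). Myc (0.56 ± 0.13) lost its call without FR2 replicate 1, FR3 replicate 1 or FR3 replicate 2, and Pim1 had a difference of -0.35 (interval -0.60 to -0.10). The 8 calls became 4 without FR2 replicate 1, 7 without FR2 replicate 2, 5 without FR3 replicate 1 and 4 without FR3 replicate 2. In the list of the BCL2 family and cell death, 3 of 29 rose and 0 fell (median 0.09). The inflammatory caspase Casp4 went from 8.66 and 8.48 to 9.52 and 9.39 (1.85-fold), with FR1 at 7.14 and 6.89, and held whichever FR2 or FR3 array was left out. Bcl2l1, which encodes BCL-XL (0.56 ± 0.13), and the BH3-only gene Pmaip1 (0.55 ± 0.12) were lost without FR2 replicate 1, FR3 replicate 1 or FR3 replicate 2, Pmaip1 also without FR2 replicate 2 (adjusted p up to 0.174, limma, Benjamini-Hochberg), and Mcl1 had a difference of -0.06 (interval -0.32 to 0.19).

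Of 42 oxidative phosphorylation genes 9 rose, by 0.68 at most, 0 fell and 33 did not pass (median 0.31). The call of each rested on single arrays, with 0 of the 9 called without FR2 replicate 1, 7 without FR2 replicate 2, 1 without FR3 replicate 1 and 3 without FR3 replicate 2. The mean over the list was 9.37 and 9.32 on the FR1 arrays, 8.91 and 9.12 on the FR2 arrays and 9.35 and 9.28 on the FR3 arrays, so FR2 replicate 1 was the lowest array. Cox7b, a subunit of cytochrome c oxidase, was at 9.24 and 9.25 in FR2 and at 9.89 and 9.96 in FR3 (0.68 ± 0.13, adjusted p = 0.00586, limma, Benjamini-Hochberg). Ndufa5 (0.67 ± 0.15), Cycs, cytochrome c (0.61 ± 0.14), and Ndufv2 (0.59 ± 0.13) rose too, and the ATP synthase genes Atp5a1, Atp5c1 and Atp5b had differences of 0.25, 0.27 and 0.28 that did not pass.

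Of 22 glycolysis genes 6 rose and 1 fell (median 0.26), and 2 of the 7 held without FR2 replicate 1, 5 without FR2 replicate 2, 2 without FR3 replicate 1 and 5 without FR3 replicate 2. Triose phosphate isomerase Tpi1 went from 8.61 and 8.73 to 9.65 and 9.36 (1.79-fold, adjusted p = 0.00114, limma, Benjamini-Hochberg). Pdk1, a kinase that holds back entry of pyruvate into mitochondria, fell from 9.03 and 9.07 to 8.31 and 8.16 (-0.82 ± 0.13). Both held whichever FR2 or FR3 array was left out. Ldhb (0.67 ± 0.14), Pgam1 (0.62 ± 0.12), Aldoa (0.51 ± 0.12), Hk2 (0.49 ± 0.14) and the lactate exporter Slc16a3 (0.44 ± 0.12) rose, while Ldha (0.22), Pgk1 (0.16) and Hk1 (0.03) did not pass.

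In cholesterol and fatty acid synthesis 1 of 26 rose and 3 fell (median -0.06). The squalene epoxidase Sqle was at 7.51 and 7.89 in FR2 and at 6.83 and 6.76 in FR3 (-0.91 ± 0.14, adjusted p = 0.000863, limma, Benjamini-Hochberg), and the desaturase Scd2 at 8.57 and 8.57 against 9.41 and 9.36 (0.82 ± 0.12). The isomerase Idi1 (-0.71 ± 0.16) and the regulator Srebf2 (-0.60 ± 0.12) lost their calls without FR2 replicate 1 or FR3 replicate 1, Idi1 also without either other array, and the count of 4 became 2 in both fits. Acly and Insig1 did not pass. Of 27 genes of nutrient transport and mTOR 3 rose and 1 fell (median 0.06). The kinase Sgk3, at 8.21 and 8.39 in FR1, was at 6.91 and 7.27 in FR2 and at 6.28 and 6.29 in FR3 (-0.80 ± 0.14, adjusted p = 0.00231) and held whichever FR2 or FR3 array was left out. The amino acid transporters Slc3a2 (0.55 ± 0.12) and Slc1a5 (0.47 ± 0.12) and the stress gene Sesn3 (0.52 ± 0.13) rose, and each was lost without FR2 replicate 1, FR3 replicate 1 or FR3 replicate 2, Slc1a5 and Sesn3 also without FR2 replicate 2. Of the 4 calls 1, 2, 1 and 1 remained without FR2 replicate 1, FR2 replicate 2, FR3 replicate 1 and FR3 replicate 2.

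Of 35 ribosomal protein genes 1 rose and 0 fell (median 0.09), and of 25 heat shock genes 1 rose and 0 fell (median 0.19). These were Rpl12 (0.49 ± 0.13) and the mitochondrial chaperonin Hspe1 (0.69 ± 0.13), both lost without FR2 replicate 1 or FR3 replicate 2, and Rpl12 also without FR3 replicate 1. Of 53 cell cycle genes 3 rose and 2 fell (median -0.05), a share near the background. The replication helicase subunit Mcm6 (9.64 and 9.56 against 10.19 and 10.43) rose and the proliferation marker Mki67 (8.27 and 8.32 against 7.40 and 7.86) fell, and neither held in every such fit, the adjusted p reaching 0.0789 for Mcm6 without FR3 replicate 2 and 0.211 for Mki67 (limma, Benjamini-Hochberg). Of the 5 cell cycle calls 1 remained without FR2 replicate 1, 4 without FR2 replicate 2, 2 without FR3 replicate 1 and 2 without FR3 replicate 2. Pcna (0.26) and Ccnd2 (0.14) did not pass.

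In the type I interferon response 2 of 30 genes rose and 5 fell (median -0.07). Ifi27 rose from 8.92 and 9.10 to 9.97 and 9.82 (1.84-fold, adjusted p = 0.000634, limma, Benjamini-Hochberg) and held whichever FR2 or FR3 array was left out. Ifit3 fell from 7.14 and 6.996 to 6.42 and 6.07 (-0.82 ± 0.15) and was lost without FR2 replicate 1 or FR3 replicate 2. Oas2 (-0.56 ± 0.15), Stat2 (-0.49 ± 0.13), Ifit1 (-0.48 ± 0.12) and Zbp1 (-0.46 ± 0.12) fell and Isg20 rose (0.51 ± 0.12), and the 7 calls became 1 without FR2 replicate 1, 3 without FR2 replicate 2, 3 without FR3 replicate 1 and 1 without FR3 replicate 2.

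Of 26 NK receptors and cytotoxicity genes 3 rose and 2 fell (median 0). Besides Cst7, Nkg7, a protein of cytotoxic granules, went from 7.62 and 8.09 to 9.05 and 9.07 (2.31-fold, adjusted p = 0.000173, limma, Benjamini-Hochberg). Klrb1c, which encodes NK1.1 in this strain, was at 4.61 and 4.96 in FR2 and at 5.90 and 5.84 in FR3 (2.13-fold), and its FR2 and FR1 arrays (4.71 and 4.73) lay among the dimmest 25% of probe sets. Klrb1f (-0.64 ± 0.14) and Klrk1, which encodes NKG2D (-0.46 ± 0.12), fell and lost their calls without FR2 replicate 2, FR3 replicate 1 or FR3 replicate 2, Klrk1 also without FR2 replicate 1. All arrays of Klrk1 lay among the dimmest 25% of probe sets, so its value is uncertain. The granule proteoglycan Srgn was at 12.81 and 12.80 against 13.13 and 13.15 (0.33, interval 0.07 to 0.59) and did not pass.

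**Figure D4:**
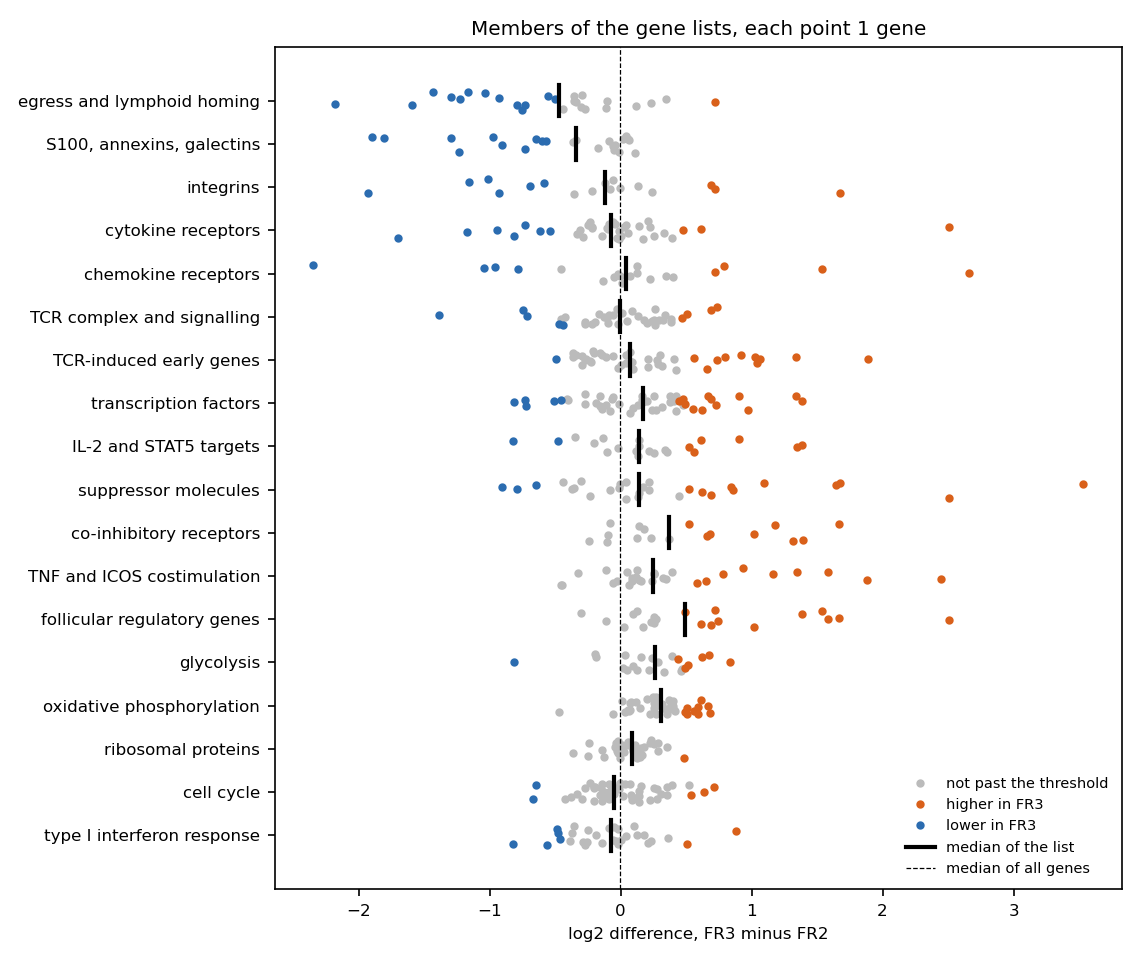
Log2 differences of FR3 minus FR2 (horizontal axis, n = 2 arrays each) for the members of 18 lists, 1 point per gene, orange where higher and blue where lower at the threshold and grey otherwise, with a bar at the median of the list and a dashed line at the median of all genes (-0.004). The medians run from -0.47 for egress and lymphoid homing to 0.49 for follicular regulatory genes.

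Markers of other cell types that a sort could carry along were read in the same fit. No gene passed among the 9 B cell, 5 plasma cell, 11 neutrophil, 5 erythroid and 5 CD8 T cell markers measured. Of 15 macrophage and monocyte markers 1 rose, the protease Ctss (0.70 ± 0.15), at 10.999 and 11.03 in FR1, 10.25 and 10.78 in FR2 and 11.21 and 11.22 in FR3, and of 13 dendritic cell markers 1 rose, Cd74, the chaperone of MHC class II (0.56 ± 0.15). Both calls were lost without FR2 replicate 1, FR3 replicate 1 or FR3 replicate 2, and that of Cd74 also without FR2 replicate 2 (adjusted p up to 0.215, limma, Benjamini-Hochberg). The MHC class II genes H2-Aa and H2-Eb1 had differences of 0.03 (interval -0.25 to 0.32) and 0.12 (interval -0.15 to 0.39). Averaged over its genes, the macrophage and monocyte list was at 5.82 and 5.80 in FR2 and 5.82 and 5.95 in FR3, the dendritic cell list at 6.41 and 6.35 against 6.47 and 6.44, and the B cell list at 5.40 and 5.37 against 5.51 and 5.37, where all genes averaged 6.60 to 6.62.

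Of 6 platelet markers 1 fell, Itgb3, and of 8 NK cell markers 1 rose, Klrb1c, and 1 fell, Itga2. Itgb3 and Itga2 are described above among the integrin chains, and Klrb1c among the NK receptors and cytotoxicity genes. The lists averaged 6.07 and 6.01 in FR2 and 5.80 and 5.95 in FR3 for platelets, and 4.998 and 5.13 against 5.03 and 5.05 for NK cells. The 9 T cell markers averaged 11.36 and 11.32 in FR2 and 11.41 and 11.47 in FR3. Among them Cd3d rose, and Thy1, the surface protein CD90, fell from 11.22 and 10.96 to 10.36 and 10.43 (-0.70 ± 0.13), a call lost without FR2 replicate 1 (adjusted p = 0.0729, limma, Benjamini-Hochberg). Cd2 (0.12, interval -0.13 to 0.37) and Cd5 did not pass. A part of other cells in any of these differences was not tested.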

How the data were processed

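Regulatory T cells of the spleen were measured on 10 Affymetrix Mouse Gene ST arrays, with 20 to 50 ng of RNA per sample in a single round of amplification per the labels. The deposited values are log2 intensities, and RMA (background correction, normalization between arrays and summary of probes) is named in the submitters' processing notes. Its version, and whether all arrays were normalized together, are not given in the sources used here. An array titled FR3 with the marker text of FR1 was placed in no group and not used.

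Of 35556 probe sets, 21789 had 1 gene symbol in the platform's table, 1621 had several and 12146 had none. The brightest probe set per gene over 6 arrays was taken, for 999 genes with a choice, which left 19938 genes with no intensity filter. Of 823 genes in the lists 746 were measured. FR3 minus FR2 was tested with limma 3.58.1 in R 4.3.3 over the 6 arrays of FR1, FR2 and FR3 replicates 1 and 2 (3 residual and 11.53 prior degrees of freedom), with Benjamini-Hochberg adjustment over all genes at 0.05. The labels call the arrays biological replicates and say no more, so the p-values measure only the spread between these samples, and the number of arrays limits the precision.

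Named are the 15 higher and 15 lower genes with the largest differences among those past the threshold with no overlap between groups (immunoglobulin and TCR segments, predicted, olfactory, vomeronasal and small RNA genes left out), the sort markers, and per list up to 8 genes past the threshold and up to 3 bright genes that were not. The members and lists were chosen with earlier results of these data known. On simulated data with 100 genes moved by 1 and 100 by 2 on the log2 scale among 19938 genes, the fit of FR3 against FR2 found 100% of both, with 7 false calls. Differences under 1, the size of most calls, and effects shared by the genes of an array were not simulated. Alternatives were the 4 arrays alone, all 9 grouped arrays with and without a block for the 2 sets of arrays, an intensity trend, a filter on dim genes, quantile normalization, other uses of probe sets, weighting of arrays, a replicate block, a minimum difference and leaving out each array. Promoter windows came from RefSeq (GRCm38.p6). Genes without a probe set of their own were not analysed here.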

Additional observations from a re-analysis of the deposited data

How the results depend on the processing

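With the sign of each call kept, the count of 1320 genes (776 higher, 544 lower) stayed within 1.5 times under the 4 arrays alone (1418), all 9 grouped arrays with a block for their set (949), an intensity trend (1880), genes under percentile 40 left out (1874 of 11963), quantile normalization (1368), the mean of the probe sets (1313) and array weights (1584). Other settings moved it: all 35556 probe sets tested gave 327 (191 higher, 136 lower), a difference of at least 1 gave 145 (88 and 57), and the 9 arrays without that block gave 55 (27 and 28). Leaving out 1 array gave 490 to 1418 called, 261 to 836 higher and 218 to 582 lower, the highest values without FR1 replicate 1 or 2. Without either FR1 array the fit was that of the 4 arrays alone, because a single FR1 array adds nothing to the estimate of the spread. The block for the set left each difference of FR3 minus FR2 as it was and changed only the spread. No gene called both in the reported fit and in an alternative changed sign. The replicate number as a block gave 1591, with all 1320 among them and all of the named calls kept; deviations of same-numbered arrays correlated at 0.182 (FR1 with FR2), 0.144 (FR1 with FR3) and 0.024 (FR2 with FR3), so with 2 numbers no pairing was shown. Of 255 named genes, 240 kept their side of the threshold with the block for the set, 245 with quantile normalization, 254 with array weights, and 200 to 252 when an array was left out. Without the block for the set 119 lost their call and another 15 changed direction, none of them past the threshold: Dusp4 -0.71, Nr4a2 -0.14, Gadd45b -1.31, Spry1 -0.30, Tnfrsf1b -0.0562, Cxcr4 -0.31, Itgal -0.22, Il2rb -0.0187, Ifit3 0.51, Skil -0.31, Pgam1 -0.33, Scd2 -0.19, Slc3a2 -0.65, Slc1a5 -0.0507 and Cd74 -0.0349. The cause was not tested. With 2 arrays per group, differences under 0.274 lay inside the 95% interval of a typical gene, and probe sets among the dimmest 25% give folds that may be too small.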
